A study of Rattus norvegicus with 20 samples.

Results

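The genes described here are 10 circadian clock genes, Per1, Per2, Per3, Cry1, Cry2, Nr1d1, Nr1d2, Dbp, Tef and Clock, in rat liver. They were chosen by gene symbol and not by a measured value, though with earlier results of these data known. Each probe set, the group of array oligos that together report 1 transcript, was taken where the platform annotation gives it one of these symbols and no other. That gave 20 probe sets of the 31042 tested, for 10 genes of the 14217 with such a probe set. Clock had 4 of them, Nr1d2 and Tef 3 each, Per2, Per3 and Cry2 2 each, and Per1, Cry1, Nr1d1 and Dbp 1 each.

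In mammals the clock runs in nearly every cell as a loop of transcription. CLOCK and BMAL1 bind E-box sequences and switch on the Per and Cry genes, whose proteins return to the nucleus and repress CLOCK and BMAL1, while NR1D1 and NR1D2 (the REV-ERB receptors) repress Bmal1 in a second loop. DBP and TEF, the PAR bZIP factors, bind D-box sequences and carry the rhythm to liver genes of metabolism and detoxification, and in adult rodent liver the transcripts of Dbp, Nr1d1 and the Per genes rise and fall strongly over the day.

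Liver RNA of Wistar Han rats (Crl:WI (Han)), all labelled female, was measured on 20 Affymetrix arrays, 5 in each of 4 groups. The groups are vehicle (corn oil alone) and PBDE-47, a brominated diphenyl ether used as a flame retardant, at 0.1, 15 and 50 mg/kg per day in corn oil. Dams were given these by gavage from gestation day 6 to postnatal day 4, and the livers are from postnatal day 4. The comparison asks whether the dose changed the transcripts of the clock, and a further one how the clock genes differed from array to array. The labels tie the dosing to the dams and do not say whether a liver is that of a dam or of a pup. Afp, the fetal and neonatal liver protein gene, was between 14.21 and 14.34 on the log2 scale on all 20 arrays. The hour at which the livers were taken was not given in the sources used here. The labels do not tie the 5 livers in a group to different animals or litters, so p-values measure the spread between these arrays, which may be technical.

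All levels are log2 values from RMA, a summary that sets the arrays to a common distribution, and the array medians lay between 5.605 and 5.648. The liver label was borne out by the hepatocyte list, whose 9 measured genes of 10 averaged 13.83 to 14.02 on every array. Transcripts of other tissue varied more: the mean of 13 measured skeletal muscle genes of 14 was 3.97 to 8.44 in vehicle, 4.08 to 8.90 at 0.1 mg/kg, 4.06 to 8.78 at 15 mg/kg and 4.22 to 7.00 at 50 mg/kg. The mean of 10 exocrine pancreas genes of 11 was 4.51 to 4.67, 4.58 to 7.19, 4.53 to 7.27 and 4.53 to 4.71 in the same order, and that of 7 erythroid genes of 9 was 9.09 to 9.97, 8.03 to 10.51, 7.86 to 10.35 and 8.19 to 10.03. In 9 arrays the muscle or the pancreas mean was more than 2 log2 units above its lowest array. The other 11 arrays comprise 4 in vehicle, 1 at 0.1 mg/kg, 3 at 15 mg/kg and 3 at 50 mg/kg. In pieces of whole tissue, fewer cells of a type and less RNA per cell cannot be told apart.

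RefSeq's table for the GRCr8 assembly holds a promoter window (250 bases before the annotated start and 50 after it) for 9 of the 10 genes, with 11 windows in all, since Nr1d1 and Clock have 2 starts each. Cry1 has none there. The windows of Per2, Tef and Nr1d1 are shown because these genes varied together between the arrays, as described further on, and because they hold the short motifs through which the loop is known to act. That of Bmal1, the partner of CLOCK, is shown as the known place of repression by NR1D1 and NR1D2. Capitals mark the motif matches, and each sequence runs 5′ to 3′ along the gene's own strand.
Per2 (chr9:99496944-99497243, minus strand): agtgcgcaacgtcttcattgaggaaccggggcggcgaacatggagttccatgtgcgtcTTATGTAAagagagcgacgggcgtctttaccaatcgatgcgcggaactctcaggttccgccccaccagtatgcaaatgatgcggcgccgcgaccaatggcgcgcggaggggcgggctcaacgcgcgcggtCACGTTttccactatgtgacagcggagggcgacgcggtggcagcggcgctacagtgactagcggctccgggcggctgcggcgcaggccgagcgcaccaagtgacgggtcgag
Tef (chr7:115206577-115206876, plus strand): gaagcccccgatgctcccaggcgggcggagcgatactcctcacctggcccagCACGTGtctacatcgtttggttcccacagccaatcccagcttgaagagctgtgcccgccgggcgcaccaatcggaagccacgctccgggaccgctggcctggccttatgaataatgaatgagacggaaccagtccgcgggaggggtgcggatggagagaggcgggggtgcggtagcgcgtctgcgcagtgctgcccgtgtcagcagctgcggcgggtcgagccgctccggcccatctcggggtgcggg
Nr1d1 (chr10:84229405-84229704, minus strand): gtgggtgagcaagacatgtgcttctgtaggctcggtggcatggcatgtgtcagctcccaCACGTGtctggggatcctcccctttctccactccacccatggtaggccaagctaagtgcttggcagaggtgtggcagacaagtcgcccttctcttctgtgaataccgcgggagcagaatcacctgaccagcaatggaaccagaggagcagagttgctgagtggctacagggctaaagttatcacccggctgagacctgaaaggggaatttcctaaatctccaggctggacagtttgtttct
Bmal1 (chr1:176766078-176766377, plus strand): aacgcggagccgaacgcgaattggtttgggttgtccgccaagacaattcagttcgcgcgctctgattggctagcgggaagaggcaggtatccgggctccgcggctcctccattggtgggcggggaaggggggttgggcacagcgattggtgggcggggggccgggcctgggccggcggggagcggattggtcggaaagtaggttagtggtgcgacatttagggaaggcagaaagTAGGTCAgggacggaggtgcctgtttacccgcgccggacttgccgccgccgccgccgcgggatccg

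Per2 holds a D-box (TTANGTAA, here TTATGTAA) 192 bases before its start and an E-prime box (CACGTT), a variant of the E-box, 62 bases before it. Tef holds the E-box CACGTG 198 bases before its start, and the Nr1d1 window shown holds one 191 bases before its start. The window of the other Nr1d1 start holds an E-prime box on the opposite strand (AACGTG), as does that of Cry2. In Bmal1 the core letters TAGGTCA of the site shared by the ROR and NR1D receptors lie 16 bases before the start. Each motif was searched on both strands. CACGTG was found in 2 of the 11 windows and in 6.418% of 33469 windows of the same length, and CACGTT in 3 of 11 and 4.834%. TTANGTAA was found in 1 of 11 and 2.238%, and TAGGTCA in 0 of 11 and 2.629%. These are matches of letters, and Dbp, Per1, Per3, Nr1d2 and Clock had none in their windows. Of these, Per3 and Nr1d2 varied with Dbp between the arrays (Pearson r of 0.84 and 0.79). Cry2, with an E-prime box, had r = 0.00 with Dbp. Whether a motif bears on this variation was not tested.

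None of the 10 genes passed the test at any dose. At 0.1 mg/kg, 0 of the 20 probe sets passed limma's test (adjusted p under 0.05), against 0% of all 31042 probe sets. At 15 mg/kg 0 of 20 passed, against 0.116%, and at 50 mg/kg 0 of 20, against 0.934%, which is 290 probe sets. A count of 0 of 20 is near each of these backgrounds. At an unadjusted p under 0.05, limma gave 1 of 20 at 0.1 mg/kg against 6.87% of all probe sets, 1 of 20 at 15 mg/kg against 12.1%, and 0 of 20 at 50 mg/kg against 13%. For 0 of 20 probe sets did the 5 arrays of a dose lie wholly above or wholly below the vehicle arrays, against 1.24% of all probe sets at 0.1 mg/kg, 2.32% at 15 mg/kg and 2.96% at 50 mg/kg.

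The slope over the order of the 4 groups called 0 of 20 in limma, against 1.45% of all probe sets, with 0 of 20 at an unadjusted p under 0.05 against 14.3%. The F test for any difference among the groups called 0 of 20, against 0.528%, with 0 of 20 at an unadjusted p under 0.05 against 10.8%. The smallest F p was 0.0894, for Per2. Taking for each gene its brightest probe set, all 10 genes had a positive value at 50 mg/kg, from 0.01 to 0.49 on the log2 scale. Their median was 0.15, beside 0.01 over all 31042 probe sets, while the median over all 20 clock probe sets was 0.03, with 15 of the 20 positive. At 0.1 mg/kg the median of the 10 genes was 0.17 and at 15 mg/kg 0.08, with 8 of 10 positive at each, beside 0.01 over all probe sets at both. Of all 20 clock probe sets 13 were positive at 0.1 mg/kg and 16 at 15 mg/kg. Of all 31042 probe sets 53.2% were positive at 0.1 mg/kg, 54.1% at 15 mg/kg and 53.0% at 50 mg/kg. The 3 dose comparisons share the vehicle arrays, so a vehicle array that stands apart enters all of them.

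**Figure D1:**
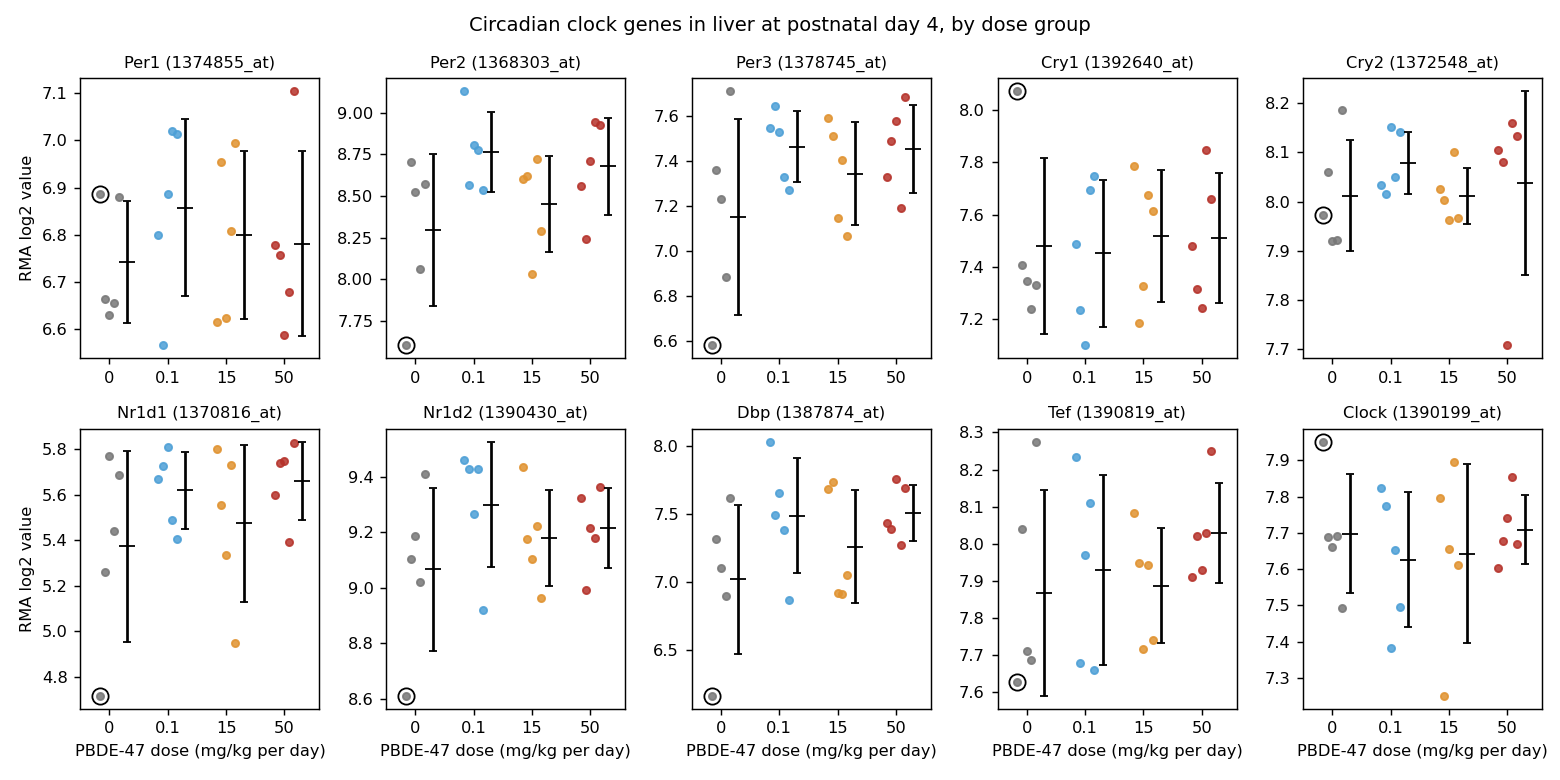
Log2 level of the brightest probe set of each of the 10 clock genes by dose group (vehicle, 0.1, 15 and 50 mg/kg, 5 arrays each), with each point an array, the bar the group mean and vehicle replicate 1 circled. The circled array has the lowest of the 20 values for 6 genes and the highest for Cry1 and Clock, and the dose groups overlap vehicle in every panel.

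Among the repressors, Per2 had the largest log2 changes of the 3 Per genes at 0.1 and 50 mg/kg. Its brightest probe set (1368303_at) read 7.60, 8.71, 8.53, 8.06 and 8.57 in vehicle and 9.13, 8.57, 8.81, 8.78 and 8.53 at 0.1 mg/kg. It read 8.60, 8.62, 8.03, 8.72 and 8.29 at 15 mg/kg and 8.56, 8.24, 8.71, 8.95 and 8.93 at 50 mg/kg. One vehicle array lay below all others, and the remaining vehicle arrays lay among the dosed ones. The log2 change was 0.47 at 0.1 mg/kg (SE 0.191, unadjusted p = 0.0235, adjusted p = 0.67), 0.16 at 15 mg/kg (adjusted p = 0.775) and 0.38 at 50 mg/kg (adjusted p = 0.407). At 50 mg/kg this is a fold of 1.30 with a 95% interval of 0.989 to 1.72. The other Per2 probe set (1378560_at) averaged 6.98 ± 0.09 at 50 mg/kg and 6.99 ± 0.08 in vehicle (SD, n = 5 each), with a log2 change of -0.02 (95% interval -0.16 to 0.12).

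Per3 (1378745_at), a paralog of the other Per genes with a lesser role in the loop in mice, read 6.58, 7.36, 7.23, 6.88 and 7.71 in vehicle and 7.54, 7.64, 7.53, 7.33 and 7.27 at 0.1 mg/kg. It read 7.59, 7.51, 7.15, 7.40 and 7.07 at 15 mg/kg and 7.33, 7.49, 7.57, 7.19 and 7.68 at 50 mg/kg. Both the lowest and the highest of the 20 values were vehicle arrays. The log2 change was 0.31 at 0.1 mg/kg (SE 0.162, adjusted p = 0.762), 0.19 at 15 mg/kg (adjusted p = 0.66) and 0.30 at 50 mg/kg (adjusted p = 0.451). The second Per3 probe set (1388239_at) was dim, with a mean of 3.31 over the arrays, and its log2 change at 50 mg/kg was -0.01.

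Per1, the Per gene that answers fastest to glucocorticoids and other acute signals, had group means close to each other. It averaged 6.78 ± 0.20 at 50 mg/kg and 6.74 ± 0.13 in vehicle (SD, n = 5 each), a log2 change of 0.04 with a 95% interval of -0.18 to 0.26. At 0.1 mg/kg the log2 change was 0.11 (adjusted p = 0.881) and at 15 mg/kg 0.06. The interval at 50 mg/kg covers folds of 0.880 to 1.20.

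Cry1, the stronger and later of the CRY repressors, read 8.07, 7.41, 7.35, 7.24 and 7.33 in vehicle and 7.49, 7.24, 7.10, 7.70 and 7.75 at 0.1 mg/kg. It read 7.79, 7.19, 7.33, 7.68 and 7.61 at 15 mg/kg and 7.48, 7.32, 7.24, 7.85 and 7.66 at 50 mg/kg. A vehicle array, the one that was lowest for Per2, was the highest of the 20. The log2 changes were -0.03 at 0.1 mg/kg, 0.04 at 15 mg/kg and 0.03 at 50 mg/kg (95% interval -0.31 to 0.37), each with an SE of 0.165. Cry2, the other CRY repressor, varied less from array to array. Its brighter probe set (1372548_at) averaged 8.04 ± 0.19 at 50 mg/kg and 8.01 ± 0.11 in vehicle (SD, n = 5 each), with folds of 0.910 to 1.14 in the 95% interval. Its dimmer one (1369446_at) had log2 changes of 0.20, 0.21 and 0.18 at 0.1, 15 and 50 mg/kg, with adjusted p of 0.775, 0.461 and 0.54.

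Nr1d1 had 1 probe set, at a mean of 5.53 close to the array medians. It read 4.72, 5.26, 5.77, 5.44 and 5.68 in vehicle and 5.67, 5.73, 5.81, 5.49 and 5.40 at 0.1 mg/kg. It read 5.80, 5.55, 5.34, 5.73 and 4.95 at 15 mg/kg and 5.60, 5.74, 5.75, 5.39 and 5.83 at 50 mg/kg. A vehicle and a 15 mg/kg array lay under 5, and all other arrays lay between 5.26 and 5.83. The log2 change was 0.25 at 0.1 mg/kg (SE 0.173, adjusted p = 0.827), 0.10 at 15 mg/kg (adjusted p = 0.851) and 0.29 at 50 mg/kg (adjusted p = 0.516).

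Nr1d2, the other REV-ERB gene, read 8.61, 9.10, 9.19, 9.02 and 9.41 in vehicle and 9.46, 9.43, 9.27, 9.43 and 8.92 at 0.1 mg/kg. It read 9.44, 9.18, 9.10, 9.22 and 8.96 at 15 mg/kg and 9.32, 8.99, 9.21, 9.18 and 9.36 at 50 mg/kg. The groups overlapped throughout, with the same vehicle array lowest. The log2 change of this probe set (1390430_at) was 0.23 at 0.1 mg/kg (SE 0.13, adjusted p = 0.775), 0.11 at 15 mg/kg and 0.15 at 50 mg/kg (adjusted p = 0.69). Those of 1370541_at and 1370540_at at 50 mg/kg were 0.04 and -0.16.

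Dbp is the D-box activator with the widest daily range of these genes in adult rodent liver. Here its range over all arrays, 3.66-fold, was the widest among the brightest probe sets of the genes. Without vehicle replicate 1 it was 2.24-fold, close to the 2.15-fold of Per2. The hour was not given for these livers, so a link of this range to the daily one was not tested. Dbp read 6.16, 7.31, 7.10, 6.89 and 7.62 in vehicle and 8.03, 7.49, 7.65, 7.38 and 6.87 at 0.1 mg/kg. It read 7.68, 7.74, 6.91, 6.91 and 7.05 at 15 mg/kg and 7.43, 7.38, 7.75, 7.27 and 7.69 at 50 mg/kg. The 5 arrays at 50 mg/kg were close together, at 7.27 to 7.75, while vehicle arrays ran from 6.16 to 7.62. Dbp averaged 7.51 ± 0.21 at 50 mg/kg and 7.02 ± 0.55 in vehicle (SD, n = 5 each), a log2 change of 0.49 (SE 0.241, adjusted p = 0.399). As a fold this is 1.40 with a 95% interval of 0.991 to 1.99, and the unadjusted p was 0.0558. At 0.1 mg/kg the log2 change was 0.47 (adjusted p = 0.761) and at 15 mg/kg 0.24 (adjusted p = 0.717).

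Tef, the other PAR bZIP gene among the 10, read 7.63, 8.04, 7.71, 7.69 and 8.27 in vehicle and 8.23, 7.68, 7.97, 8.11 and 7.66 at 0.1 mg/kg. It read 8.08, 7.95, 7.72, 7.94 and 7.74 at 15 mg/kg and 7.91, 8.02, 7.93, 8.03 and 8.25 at 50 mg/kg. The dosed arrays all lay within the span of the vehicle arrays. The log2 change of this probe set (1390819_at) was 0.06 at 0.1 mg/kg (SE 0.129, adjusted p = 0.962), 0.02 at 15 mg/kg and 0.16 at 50 mg/kg (adjusted p = 0.657). The dimmest Tef probe set (1369919_at), at a mean of 4.49, was the 1 of 20 under an unadjusted p of 0.05 at 15 mg/kg. Its log2 change there was 0.27 (unadjusted p = 0.0231, adjusted p = 0.339), and the brighter Tef probe sets read 0.02 and -0.07 in the same comparison.

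Clock, the activator, had group means that lay closer together than the arrays of any group. Its brightest probe set (1390199_at) averaged 7.70 ± 0.16 in vehicle, 7.63 ± 0.19 at 0.1 mg/kg, 7.64 ± 0.25 at 15 mg/kg and 7.71 ± 0.09 at 50 mg/kg (SD, n = 5 each). At 50 mg/kg the log2 change was 0.01, with folds of 0.860 to 1.18 in the 95% interval. The next brightest (1389456_at) gave 0.03, and the 2 dim ones, at means of 4.78 and 3.77, gave -0.14 and -0.01.

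**Figure D2:**
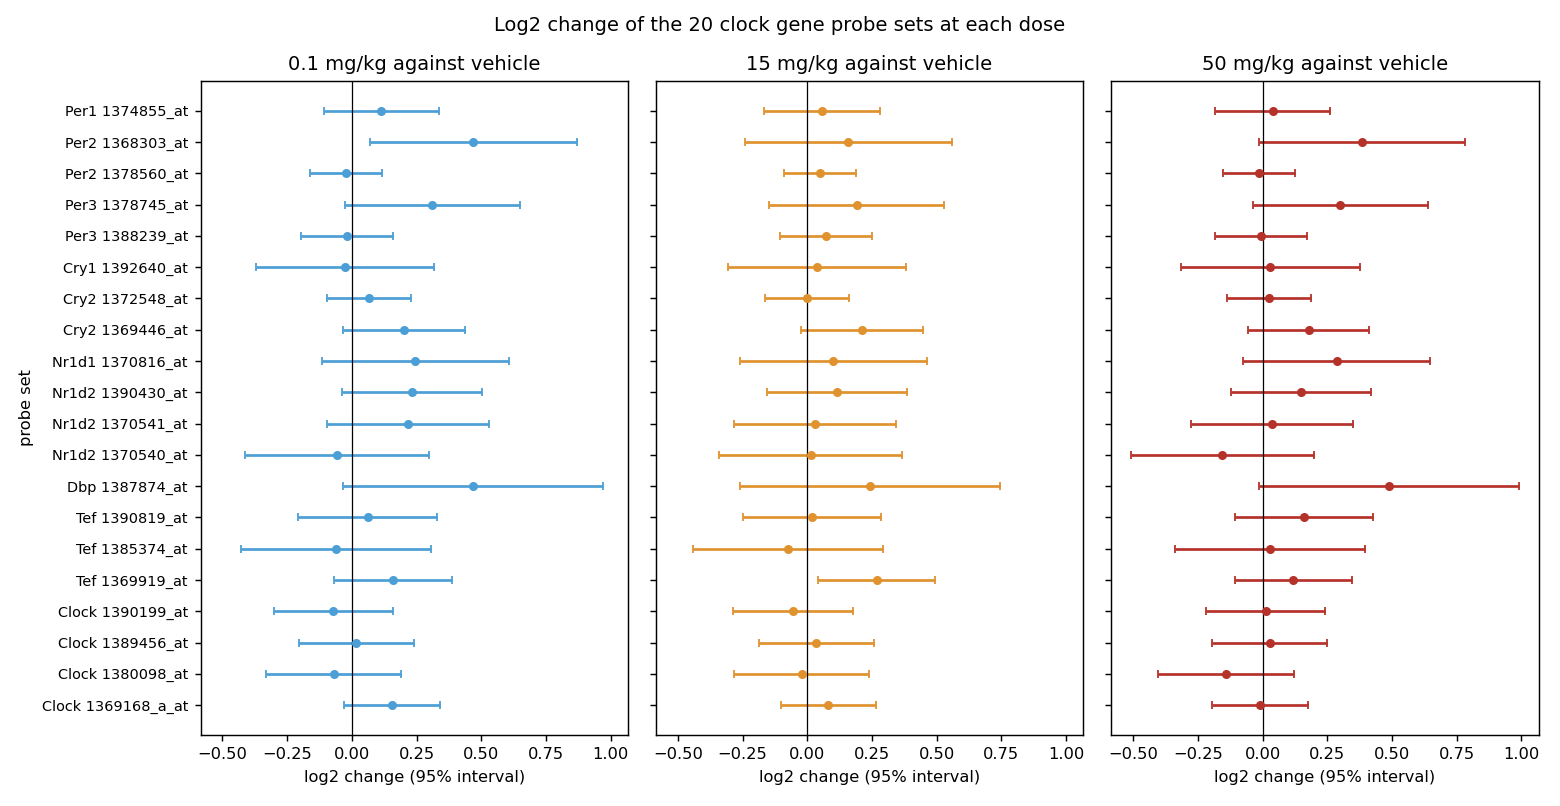
Log2 change against vehicle of the 20 clock gene probe sets at 0.1, 15 and 50 mg/kg, with points for the fitted change and bars for its 95% interval. Only the intervals of Per2 1368303_at at 0.1 mg/kg (0.07 to 0.87) and Tef 1369919_at at 15 mg/kg (0.04 to 0.49) leave out 0, and neither passed the adjusted test.

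The values for Dbp, Per2, Per3 and the REV-ERB genes depended on 1 vehicle array. Vehicle replicate 1 had the lowest of the 20 values for 6 of the 10 genes, Per2, Per3, Nr1d1, Nr1d2, Dbp and Tef, and the highest for Cry1 and Clock. Without it, the log2 changes at 0.1 mg/kg were 0.25 for Dbp, 0.30 for Per2, 0.17 for Per3, 0.08 for Nr1d1, 0.12 for Nr1d2 and 0.00 for Tef. At 15 mg/kg they were 0.03, -0.02, 0.05, -0.06, -0.00 and -0.04 in the same order. At 50 mg/kg they were 0.27, 0.21, 0.16, 0.12, 0.03 and 0.10. Every one of these is closer to 0 than with the array, or of the other sign at 15 mg/kg. This array was among the 11 low in muscle and pancreas transcripts, with list means of 4.20 and 4.65. On those 11 arrays alone the log2 changes at 50 mg/kg were 0.67 for Dbp, 0.48 for Per3, 0.44 for Per2 and 0.37 for Nr1d1, and none of the 20 probe sets passed. The hepatocyte mean of vehicle replicate 1 was 13.85. Its endothelial mean, 9.18, was the lowest of the 20, and so was its weight, 0.66, in the fit with array weights.

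The 4-digit number in each array's label has a leading digit of 1 to 4, whose meaning the labels do not give. Since each digit holds several dose groups, it was looked at as a possible block. For the digit limma called 0 of 20 probe sets, against 0% of all, and 3 of 20 had an unadjusted p under 0.05, against 7.16%. These 3 were Per1, Clock 1390199_at and Tef 1369919_at. Within digits 1 to 4, the difference in Dbp between 50 mg/kg and vehicle was 1.27, 0.36, 0.38 and 0.07 on the log2 scale, and that in Per2 was 0.96, -0.14, 0.88 and 0.35. Digit 2 holds 2 arrays of each of these groups and the other digits 1 of each, so the spread of these values is that of single arrays. The value for digit 1 is the one that contains vehicle replicate 1.

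The clock genes differed widely in their spread between arrays. Dbp covered 1.87 log2 units over the 20 arrays, a 3.66-fold range, and Per2 2.89-fold, Per3 2.19-fold, Nr1d1 2.16-fold and Cry1 1.96-fold. Nr1d2 covered 1.80-fold, Clock 1.63-fold, Tef 1.57-fold, Per1 1.45-fold and Cry2 1.39-fold. Without vehicle replicate 1 Dbp ran from 6.87 to 8.03, a 2.24-fold range, and Per2 covered 2.15-fold, Nr1d1 1.84-fold, Per3 1.77-fold and Cry1 1.68-fold. The residual SD, which is the spread between arrays of the same group, was 0.418 log2 units for Dbp. That was larger than in 94.9% of the 3833 probe sets whose mean lay within 0.5 log2 units of it. The like figure was 93.0% for Per2, 86.5% for Cry1, 85.9% for Nr1d1, 84.6% for Per3, 80.6% for Nr1d2 and 75.5% for Tef. It was 61.3% for Clock, 50.6% for Per1 and 20.7% for Cry2. Without vehicle replicate 1 it was 92.4% for Dbp, 89.6% for Per2, 79.7% for Cry1, 76.6% for Nr1d1, 77.6% for Per3 and 70.2% for Nr1d2.

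**Figure D3:**
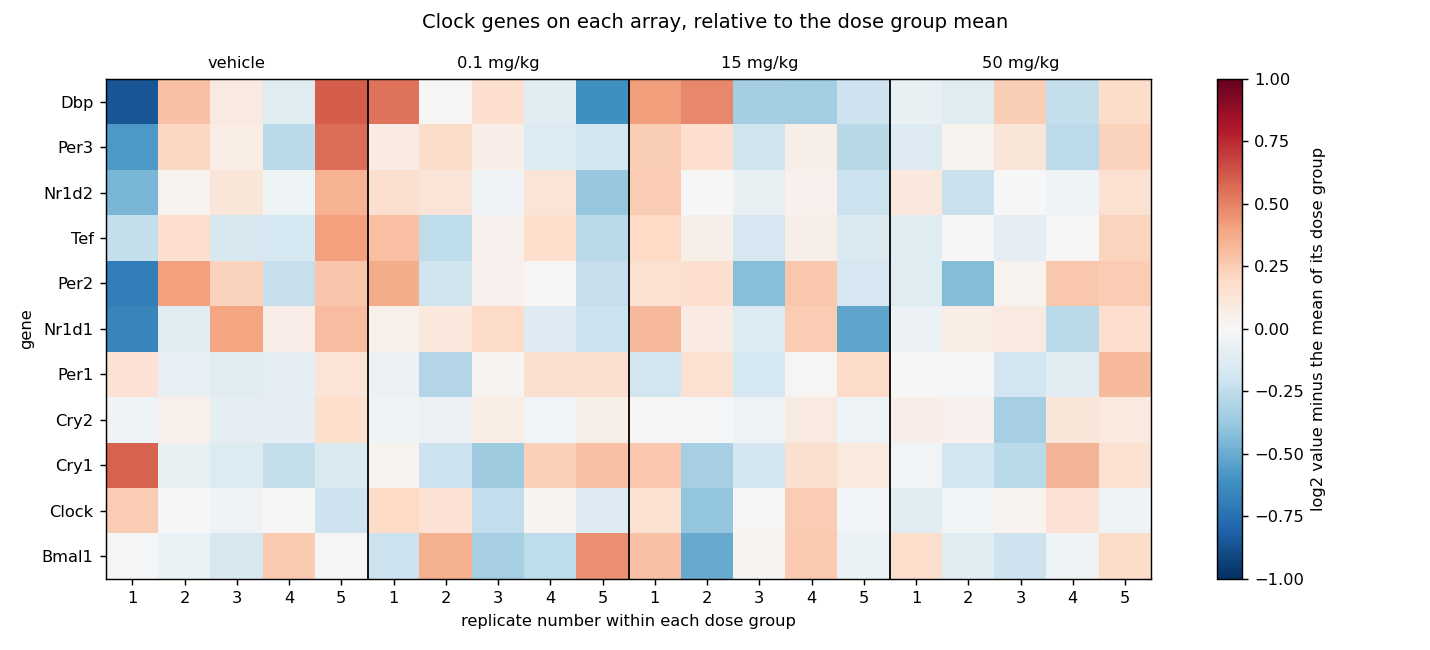
Log2 level of the 10 clock genes and Bmal1 (rows, brightest probe set of each) on each of the 20 arrays (columns, by dose group). Each value is minus the gene's mean in its dose group. Vehicle replicate 1 is the lowest column for Per2, Per3, Nr1d1, Nr1d2 and Dbp and the highest for Cry1 and Clock. Columns high for Dbp are mostly high for Per3 and Nr1d2.

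Within groups, 5 of the other clock genes moved with Dbp from array to array, Per2, Per3, both REV-ERB genes and Tef. After each group's mean was subtracted, Per3 had a Pearson r of 0.84 with Dbp over the 20 arrays (permutation p = 0.00012, adjusted p = 0.00216) and a Spearman rho of 0.85 (permutation p = 7e-05, adjusted p = 0.00126). Nr1d2 had r = 0.79 (permutation p = 0.0012, adjusted p = 0.0108) and rho = 0.73 (permutation p = 0.00134, adjusted p = 0.0121). For Tef r was 0.72 (permutation p = 0.00254, adjusted p = 0.0114) and rho 0.70 (permutation p = 0.00243, adjusted p = 0.0146). Adjustment is over 18 genes tested against Dbp, the 9 other clock genes of this account and 9 further regulators of the loop.

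Per2 had r = 0.71 (permutation p = 0.00251, adjusted p = 0.0114) and rho = 0.62 (permutation p = 0.0106, adjusted p = 0.0478). Nr1d1 had r = 0.66 (permutation p = 0.0112, adjusted p = 0.0403), and its rho of 0.58 did not pass (permutation p = 0.0247, adjusted p = 0.0889). So 5 of 18 genes passed by Pearson r and 4 by Spearman rho. Cry1 ran the other way, with r = -0.53 (permutation p = 0.0423, adjusted p = 0.127) and rho = -0.43 (permutation p = 0.0836, adjusted p = 0.215), which did not pass. Clock had r = -0.36 (adjusted p = 0.328), Per1 -0.13 (adjusted p = 0.75) and Cry2 0.00 (adjusted p = 0.993), all by permutation.

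**Figure D4:**
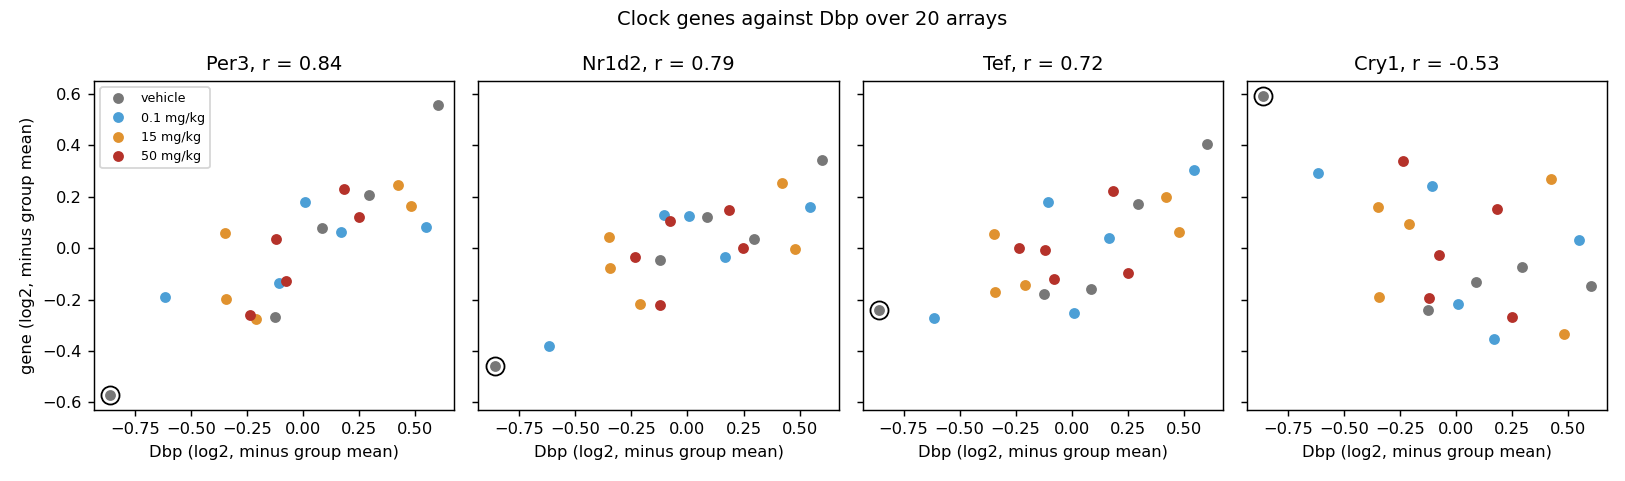
Level of Per3, Nr1d2, Tef and Cry1 against that of Dbp on the 20 arrays (log2, dose group means subtracted, points by dose group, vehicle replicate 1 circled). Per3, Nr1d2 and Tef rise with Dbp (r of 0.84, 0.79 and 0.72), Cry1 falls (r of -0.53, which did not pass), and the circled array is at the end of the Dbp axis.

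Some of these relations rest on the arrays at the ends. The 2 arrays farthest from the median of Dbp were vehicle replicate 1 and 0.1 mg/kg replicate 1. Without both, r was 0.80 for Per3, 0.66 for Nr1d2, 0.63 for Tef, 0.50 for Nr1d1 and 0.47 for Per2, and Per3 was the 1 gene of 18 that passed. Without vehicle replicate 1 alone 3 passed, Per3 (0.76, adjusted p = 0.00774), Tef (0.70, adjusted p = 0.0334) and Nr1d2 (0.69, adjusted p = 0.0372), by permutation. Per2 (0.56, adjusted p = 0.0933) and Nr1d1 (0.47, adjusted p = 0.218) then did not pass by permutation. Cry1 had r = -0.29 without that array.

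The sign of r was the same in each dose group for these 5 genes. It was 0.81 to 0.97 in vehicle, 0.71 to 0.86 at 0.1 mg/kg, 0.43 to 0.76 at 15 mg/kg and 0.22 to 0.86 at 50 mg/kg, with 5 arrays each. Within the leading digits of the label number it was 0.79 to 0.99, 0.15 to 0.92, -0.18 to 0.86 and 0.70 to 0.99 for digits 1 to 4, with 5, 6, 5 and 4 arrays. Digit 3 held the 1 negative value of the 20. These r over so few arrays are a description. With the mean of each digit subtracted as well, r over the 20 arrays was 0.90 for Nr1d2, 0.82 for Per3, 0.79 for Tef, 0.75 for Per2 and 0.65 for Nr1d1, and Nr1d1 no longer passed. Among the 6 genes, Dbp included, the 15 pairs had r of 0.43 to 0.84, with a median of 0.71.

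Further probe sets of the same genes give another reading of these relations. For Tef, 1385374_at had r = 0.81 with Dbp and 1369919_at 0.60. The dim Per3 probe set, 1388239_at, had 0.73, and the 2 further Nr1d2 probe sets 1370541_at and 1370540_at had 0.72 and 0.41. For Per2 the probe set 1378560_at had 0.39, and its residual SD of 0.0936 was larger than in 4.0% of probe sets of a like level. All these are positive, as for the brightest probe set of each gene.

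Among all genes on the array, Per3, Tef, Nr1d2 and Per2 each had a probe set near the top of the ranking by r with Dbp. Of the 11301 single-symbol probe sets with a mean of at least 6, Per3 1378745_at ranked 1, Tef 1385374_at 3 and Nr1d2 1390430_at 10. Nr1d2 1370541_at, Tef 1390819_at and Per2 1368303_at ranked 42, 43 and 47, while Per2 1378560_at ranked 1538. Cry2 1372548_at ranked 6312, Clock 1389456_at 6740, Per1 8179, Clock 1390199_at 10296 and Cry1 11080. Nr1d1, with a mean under 6, was not ranked. These ranks are those with all 20 arrays. Without vehicle replicate 1, r was 0.78 for Tef 1385374_at, 0.76 for Per3, 0.69 for Nr1d2 1390430_at and 0.56 for Per2 1368303_at. Raph1, not a clock gene, ranked 2 with all arrays and had 0.77 without that one, above Per3. Of all the probe sets compared, 6.42% had r of at least 0.5 and 0.487% had r of at least 0.7, and the median r was 0.05. Arrays share their RNA quality and processing across all probe sets, so this ranking is a description over 20 arrays and carries no p.

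The 8 probe sets most like Dbp were those of Per3, Raph1 (an actin regulator), Tef, Fam50a, Negr1 (a cell adhesion molecule), Arf6 (a small GTPase of membrane traffic), Mrrf (mitochondrial ribosome recycling) and Cyp2e1 (a liver cytochrome P450). Their r ran from 0.84 down to 0.80. The 8 most opposite were those of Mtch2 (a mitochondrial outer membrane protein), Aimp2, Zbtb42, F2r (a thrombin receptor), Foxred1 and Ndufa5 (assembly and subunit of respiratory complex I), Fchsd1 and Slc30a3 (a zinc transporter). Mtch2 had r = -0.88 and Slc30a3 -0.77. Without vehicle replicate 1 the r of Mtch2 was -0.82 and that of Raph1 0.77.

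**Figure D5:**
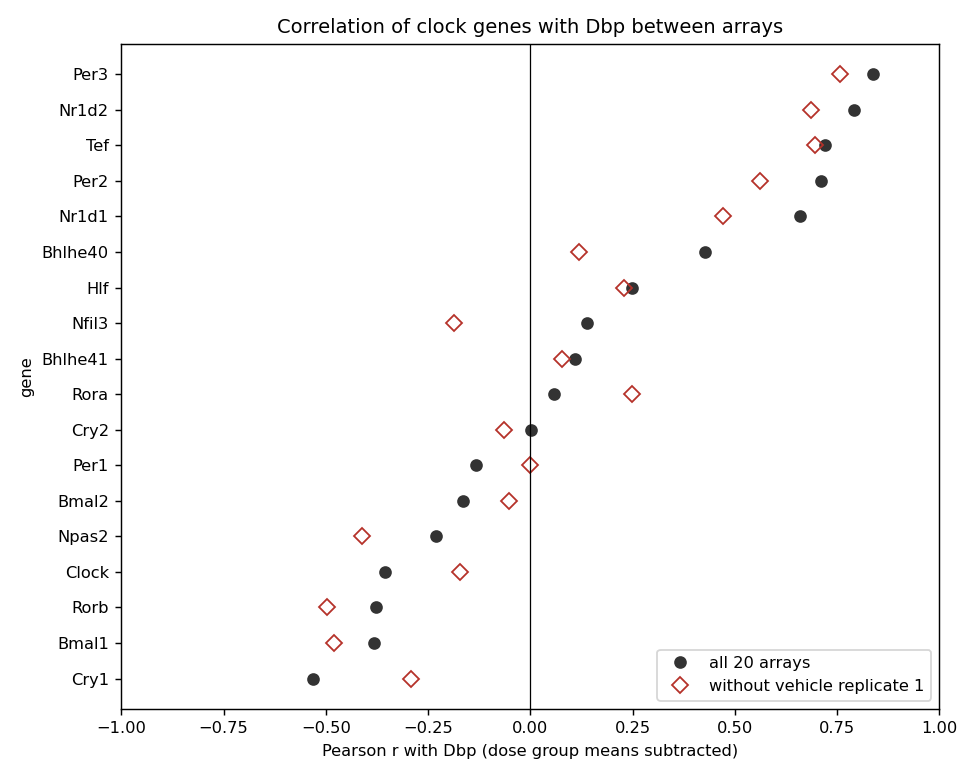
Pearson r with Dbp (dose group means subtracted) of 18 clock genes, over all 20 arrays (filled points) and without vehicle replicate 1 (open diamonds). Per3, Nr1d2 and Tef stay at 0.69 or more without that array, while Per2 and Nr1d1 are at 0.56 and 0.47.

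Transcripts of other tissue were set beside these genes in the same way. Over the 20 arrays, with group means subtracted, the r of the 10 clock genes with the mean of the muscle list ran from -0.41 (Nr1d1) to 0.23 (Cry1). With the pancreas list it ran from -0.46 (Tef) to 0.11 (Clock), and with the erythroid list from -0.58 (Clock) to -0.08 (Per1), where Tef had -0.49 and Dbp -0.13. The 5 measured endothelial genes of 6 had r of 0.07 (Pecam1) to 0.65 (Stab2, which had 0.40 without vehicle replicate 1) with Dbp, and their mean level was 9.18 to 9.63 in vehicle, 9.37 to 9.57 at 0.1 mg/kg, 9.31 to 9.59 at 15 mg/kg and 9.35 to 9.44 at 50 mg/kg. With the muscle, pancreas and erythroid means as covariates, 4 of the 18 genes passed by permutation, and Nr1d1 did not. The part of the endothelial transcripts in the result was not tested. On the 11 arrays low in muscle and pancreas transcripts, the r with Dbp was 0.87 for Per3, 0.84 for Nr1d2, 0.71 for Per2, 0.70 for Nr1d1 and 0.66 for Tef. By permutation 0 of the 18 genes passed on these 11 arrays (lowest adjusted p = 0.134), and 5 had an unadjusted p under 0.05.

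Of the rest of the loop, none passed the test in any dose comparison, in the slope or in the F test. Of the activators and ROR receptors 5 of 6 genes were measured, of the other E-box and D-box regulators 4 of 5, of the kinases, ligases and partners 6 of 8 and of the rhythmic liver outputs 7 of 8. In limma 0 of these 22 were called, and 7 had an unadjusted F p under 0.05, against 10.8% of all 31042 probe sets. These 7 were Npas2, Rora, Nfil3, Noct, Nampt, Gys2 and Cyp7a1. Bmal1, the partner of CLOCK and a target of the REV-ERB receptors, averaged 6.70 ± 0.17 at 50 mg/kg and 6.93 ± 0.16 in vehicle (SD, n = 5 each). Its log2 change was -0.22 at 0.1 mg/kg (adjusted p = 0.835), -0.04 at 15 mg/kg and -0.24 at 50 mg/kg (adjusted p = 0.578). Its r with Dbp was -0.38 (permutation p = 0.133, adjusted p = 0.266), of the sign opposite to that of Nr1d1 and Nr1d2.

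Npas2, which can take the place of CLOCK, had log2 changes of -0.52 at 0.1 mg/kg (unadjusted p = 0.017, adjusted p = 0.621), 0.08 at 15 mg/kg and -0.07 at 50 mg/kg. Its 5 arrays at 0.1 mg/kg read 5.28, 5.35, 4.89, 5.44 and 5.48, all below the vehicle arrays at 5.59, 5.81, 5.95, 5.63 and 6.04. Of all 31042 probe sets, 384 (1.24%) did not overlap vehicle at this dose, and limma called 0 there. Npas2 was named for a small F p within its list, so the lack of overlap is that of a picked gene. Rora, an activator of Bmal1, had -0.27 at 0.1 mg/kg, -0.21 at 15 mg/kg and 0.42 at 50 mg/kg (adjusted p = 0.425). One array at 50 mg/kg, replicate 2, read 8.06 and the other 4 read 6.94 to 7.31, and without it the log2 change of Rora was 0.23. Bmal2, a paralog of Bmal1, had 0.13, 0.10 and 0.09 at 0.1, 15 and 50 mg/kg.

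Nfil3, a repressor that binds the same D-boxes as DBP and TEF, had like values at all doses. Its log2 changes were -0.35 at 0.1 mg/kg (adjusted p = 0.638), -0.35 at 15 mg/kg (adjusted p = 0.327) and -0.34 at 50 mg/kg (adjusted p = 0.284). It averaged 8.27 ± 0.34 in vehicle and 7.92 ± 0.12, 7.93 ± 0.22 and 7.93 ± 0.17 at 0.1, 15 and 50 mg/kg (SD, n = 5 each). The 3 values share the vehicle arrays, and without vehicle replicate 5 they were -0.23, -0.23 and -0.22. Hlf, another PAR bZIP gene, had -0.10 at 50 mg/kg. Bhlhe40 (DEC1, an E-box repressor) had 0.62 at 50 mg/kg (SE 0.347, adjusted p = 0.479) and a spread larger than in 98.7% of probe sets of a like level. Vehicle replicate 1 read 6.00 and the other vehicle arrays 7.43 to 8.13, and without it the log2 change of Bhlhe40 at 50 mg/kg was 0.29. Bhlhe41 (DEC2), its paralog, had -0.10.

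Among the kinases, ligases and partners the 4 with the smallest F p were Timeless, Gsk3b, Csnk1e and Btrc, with an adjusted p of 0.532 for Timeless and higher for the others. At 50 mg/kg their log2 changes lay between -0.09 and 0.09. Gsk3b, a kinase that phosphorylates several clock proteins, had -0.35 at 15 mg/kg (adjusted p = 0.408).

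Of the other clock lists, the rhythmic liver outputs held the largest log2 change. Noct (nocturnin), a gene with a strong daily rhythm in mouse liver, read 7.995, 8.19, 8.32, 8.21 and 8.43 at 50 mg/kg, against 6.97, 7.38, 8.21, 7.01 and 7.82 in vehicle. Its log2 change was 0.75 (SE 0.276, unadjusted p = 0.0131, adjusted p = 0.235), and 1 vehicle array lay among those at 50 mg/kg. The log2 change of Noct was 0.23 at 0.1 mg/kg and -0.13 at 15 mg/kg. Without vehicle replicate 1 its value at 50 mg/kg was 0.63. Gys2, liver glycogen synthase, had -0.36 at 0.1 mg/kg, -0.33 at 15 mg/kg and -0.45 at 50 mg/kg (SE 0.137, unadjusted p = 0.0038, adjusted p = 0.139). Cyp7a1, which makes bile acids from cholesterol, had the smallest F p of the list (0.0101, adjusted p = 0.28). It averaged 7.86 ± 0.50 in vehicle, 8.39 ± 0.37 at 0.1 mg/kg, 7.55 ± 0.26 at 15 mg/kg and 8.14 ± 0.44 at 50 mg/kg (SD, n = 5 each). Nampt, an enzyme of NAD synthesis, had -0.27 at 0.1 mg/kg, -0.23 at 15 mg/kg and 0.09 at 50 mg/kg, with an adjusted p of 0.377 in the F test.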

How the data were processed

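The deposited table gives 31099 probe sets per array as log2 values, which the authors made with RMA per the submitters' processing notes, without a version. Since RMA flattens bright signals and dim ones are near background, folds of such probe sets are too small. Leaving out 57 control probe sets gave 31042 for the fit, and no filter on level was set. GEO's annotation assigns a single symbol to 20826, several to 436 and none here to 9780, and RefSeq's GRCr8 table holds the gene ID of 20758. The number of arrays limits the precision.

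Sample titles give the groups and replicate numbers. A mean per group was fitted over all 4 groups by limma 3.58.1 (R 4.3.3; lmFit, then eBayes; two-sided), and Benjamini-Hochberg adjustment ran over all 31042 probe sets within a comparison. Every p of a dose comparison or F test is from this fit. Correlations with Dbp used 100000 permutations within groups (two-sided; Python 3.11.15, numpy 2.4.6, scipy 1.17.1). The code was tested on simulated data. A gene stands for its single-symbol probe set of highest mean. The clock genes and all lists were chosen with earlier results of these data known. Named were all probe sets of the 10 genes, the 4 genes of each other clock list with the smallest F p, the 8 probe sets most like and most unlike Dbp, and the 3 genes with the largest absolute r in each list of resetting signals.

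Alternatives tried were blocks for the replicate number or leading digit, a fit of the compared groups only, other normalizations, a filter at a mean of 6, another variance model, array weights, other tissue as covariates or left out, and each array left out. Leaving out arrays for the other clock genes, the ranges, the spread and the lists of resetting signals was chosen after seeing the data.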

Additional observations from a re-analysis of the deposited data

Results flagged for a closer look

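In 80 groups of 5 arrays (20 probe sets in 4 dose groups), 7 had 1 array far from the other 4 by Dixon's test. Chance flags about 1 group in 20, so 4 of 80 would be expected. Cry1 was high, at 8.07, in vehicle replicate 1, and Cry2 (1372548_at) was low, at 7.71, in replicate 3 at 50 mg/kg. For Per2, 1378560_at was low, at 6.73, in replicate 2 at 0.1 mg/kg. In replicate 2 at 50 mg/kg 3 probe sets were low, Nr1d2 1370541_at at 7.75, Nr1d2 1370540_at at 3.38 and Clock 1380098_at at 4.26. Nr1d2 1370540_at was also high, at 4.58, in replicate 1 at 15 mg/kg. Apart from Cry1 and the Cry2 probe set, these are not the brightest probe set of their gene.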

How the results depend on the processing

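The count of clock probe sets called stayed at 0 of 20 in all dose comparisons, the slope, the F test and the leading digit under every alternative run, the replicate block included. The lowest adjusted p of any of the 10 genes under any alternative was 0.191, for Per3 at 50 mg/kg without vehicle replicate 5. Same-numbered replicates did not pair the arrays: the 30 such pairs had correlations of their deviations from -0.36 to 0.29. Under the replicate block 4 genes passed the correlation with Dbp, as they did with the leading digit subtracted, another quantile normalization or tissue covariates. In each of these Nr1d1 was the gene lost, and the cause was not tested. The filter at a mean of 6 left 13 of the 20 probe sets and no Nr1d1. The number of genes that passed was 1 without the 2 arrays farthest in Dbp and 0 without the 9 arrays high in muscle or pancreas, both of which leave fewer arrays. With each array left out it was 3 to 5. Without replicate 1 at 15 mg/kg Cry1 passed (r = -0.65, adjusted p = 0.0427 by permutation) and Nr1d1 did not. Nr1d1 passed in 13 of the 27 alternatives for the correlation. With 1 array left out, it was also lost without vehicle replicate 1, 4 or 5 and without replicate 5 at 0.1 mg/kg. The same held without replicate 3 at 15 mg/kg and without replicate 4 or 5 at 50 mg/kg. Where the 9 arrays were left out, the lone array at 0.1 mg/kg was assumed to vary like the other groups.

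Of the 30 log2 changes (10 genes at 3 doses) 13 turned sign under some alternative, none of them called and all small. Cry1 at 0.1 mg/kg was 0.0022 with another quantile normalization and 0.0078 with array weights, and at 15 mg/kg -0.023 with the digit as a block. Cry2 at 15 mg/kg was 0.051 with another quantile normalization, 0.00075 with equal medians, 0.0047 with array weights, 0.0072 with tissue covariates and 0.043 without the 9 arrays. At 50 mg/kg Cry1 and Clock were both -0.046 with covariates, and without the 9 arrays Cry1 was -0.092, Cry2 -0.026 and Clock -0.0021. With each array left out, the ranges at 0.1 mg/kg were -0.10 to 0.12 for Cry1 and -0.014 to 0.16 for Tef. At 15 mg/kg they were -0.015 to 0.26 for Per2, -0.029 to 0.19 for Cry1, -0.023 to 0.043 for Cry2, -0.064 to 0.23 for Nr1d1, -0.00020 to 0.20 for Nr1d2, -0.042 to 0.12 for Tef and -0.12 to 0.043 for Clock. At 50 mg/kg they were -0.042 to 0.087 for Per1, -0.055 to 0.18 for Cry1, -0.0050 to 0.11 for Cry2 and -0.039 to 0.076 for Clock. The cause was not tested.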

Other observations

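Signals that are known to reset the liver clock were read through lists of responsive genes, as r with Dbp over the 20 arrays with group means subtracted. These genes were picked from their lists for their size of r, so no p is given. Among glucocorticoid responsive genes the 3 largest were Tsc22d3 (0.46), Dusp1 (0.29) and Tat (0.16), with a median of 0.14 over the 7 measured. Without vehicle replicate 1, the array lowest in Dbp, they were 0.40, 0.09 and 0.10. Among fasting and feeding genes they were Srebf1 (0.47), Ppargc1a (-0.41) and Pdk4 (-0.35), and without that array -0.13, -0.11 and -0.27. Pdk4 had the largest log2 change of this list at 50 mg/kg, 1.04, reading 10.00 to 10.25 there and 8.64 to 9.25 in vehicle. At that dose limma called 1 of the 8 measured genes of the list, against 0.934% of all probe sets. Srebf1 read 7.61 in vehicle replicate 1 and 9.11 to 9.88 on the other 19 arrays. Among immediate early genes they were Junb (0.66), Egr1 (0.41) and Fosb (0.14), and without that array 0.52, 0.12 and 0.12. Egr1 read 8.38 there and 8.94 to 10.69 on the other arrays. Fosb was dim, with a mean of 3.37 over the arrays.

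The temperature list held the most negative values, those of the cold-inducible RNA-binding protein genes Rbm3 (-0.65) and Cirbp (-0.53), with Hsph1 at 0.35. Without vehicle replicate 1 they were -0.44, -0.35 and 0.34. Rbm3 read 12.05 in that array and 10.75 to 11.55 on the other 19 arrays. Cirbp read 9.14 there, the highest of the 20. Rbm3 and Cirbp did not pass in any dose comparison, with limma log2 changes at 50 mg/kg of -0.26 (adjusted p = 0.525) for Rbm3 and -0.00 (adjusted p = 0.996) for Cirbp.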
